A study of Mus musculus with 4 samples.

Results

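Small nucleolar RNA (snoRNA) host genes, 7 in number, and a pair of abundant nuclear long noncoding RNAs were followed in differentiating mouse embryonic stem cells. The 9 genes, Gas5, Snhg1, Snhg3, Snhg5, Snhg6, Snhg8, Snhg12, Malat1 and Neat1, were chosen by name among 27408 gene symbols, and their level is the sum of FPKM (fragments per kilobase of transcript scaled to the mapped fragments of the library) over the transcript rows of each symbol. All 9 had a row, and all 9 were among the 11736 genes tested, which averaged 1 FPKM or more over the 4 libraries. The cells were CJ9, an embryonic stem cell line of the 129S4/SvJae mouse strain, wild type and given Cas9 alone, as the controls of a study on deletion of the Evx1as/Evx1 locus. They were differentiated by withdrawal of leukaemia inhibitory factor (LIF), with 2 libraries at day 6 and 2 libraries at day 4. Every library thus shared the wild-type genotype, Cas9 and LIF withdrawal, and no undifferentiated or locus-deleted library was analysed here.

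A snoRNA host gene is transcribed and spliced so that the introns release small RNAs, and the spliced host RNA itself is often a short-lived byproduct. Box C/D snoRNAs guide ribose methylation and box H/ACA snoRNAs guide pseudouridylation, mostly of ribosomal RNA. Many spliced hosts carry short reading frames and are removed by nonsense-mediated decay when they are translated, and many start within a pyrimidine tract of the kind found in ribosomal protein genes. Malat1 is retained in nuclear speckles, where splicing factors gather, and Neat1 is the scaffold of paraspeckles. Malat1 and the long Neat1 isoform end in a triple-helical structure in place of a usual poly(A) tail, whereas the short Neat1 isoform is polyadenylated. The libraries were made from poly(A)-selected RNA with a strand-specific kit, per the labels' protocols.

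The 7 hosts overlapped 27 annotated snoRNAs on their own strand, from 60 to 205 bases long. Gas5 held 9 of them, Snhg1 held 8, Snhg12 held 4, Snhg3 and Snhg5 held 2 each, and Snhg6 and Snhg8 held 1 each. Of the 27, 20 lay in introns and 7 inside an exon of the GENCODE transcript linked to the measured row. For Gas5 the longer of its 2 rows was taken. The 7 exonic ones were 6 in that Gas5 row of 2554 bases, which retains introns, and Snora24 in the single exon of Snhg8. An FPKM of those 2 hosts can therefore include intronic or snoRNA sequence. The mature snoRNAs were not analysed here. One snoRNA per host is printed, to show the product that each gene carries, from the GENCODE M21 transcripts on mm10, with a TGATGA motif near the start of box C/D members, the CTGA motif near their end and the final ACA of H/ACA members in capitals where these letters were found.
Gas5, Snord47 (chr1:161038082-161038158, plus strand): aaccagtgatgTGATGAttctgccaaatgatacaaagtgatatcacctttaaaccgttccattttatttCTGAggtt
Snhg1, Snord22 (chr19:8725866-8725991, plus strand): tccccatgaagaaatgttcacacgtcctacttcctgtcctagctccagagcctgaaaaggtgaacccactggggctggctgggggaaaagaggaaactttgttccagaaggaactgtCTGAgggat
Snhg3, Snora73a (chr4:132352775-132352979, minus strand): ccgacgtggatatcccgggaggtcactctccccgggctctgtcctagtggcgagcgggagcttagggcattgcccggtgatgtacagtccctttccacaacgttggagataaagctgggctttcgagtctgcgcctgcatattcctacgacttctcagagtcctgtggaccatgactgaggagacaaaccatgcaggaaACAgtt
Snhg5, Snord50a (chr9:88521529-88521600, minus strand): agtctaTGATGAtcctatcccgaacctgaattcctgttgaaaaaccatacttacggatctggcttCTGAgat
Snhg6, Snord87 (chr1:9942463-9942549, minus strand): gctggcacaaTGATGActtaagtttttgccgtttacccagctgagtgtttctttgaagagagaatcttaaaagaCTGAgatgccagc
Snhg8, Snora24 (chr3:123507937-123508066, minus strand): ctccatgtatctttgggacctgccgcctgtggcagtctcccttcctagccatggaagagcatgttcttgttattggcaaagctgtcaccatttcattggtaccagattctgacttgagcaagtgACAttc
Snhg12, Snord99 (chr4:132310691-132310764, plus strand): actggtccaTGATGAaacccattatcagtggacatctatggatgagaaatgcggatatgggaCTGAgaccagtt

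**Figure D1:**
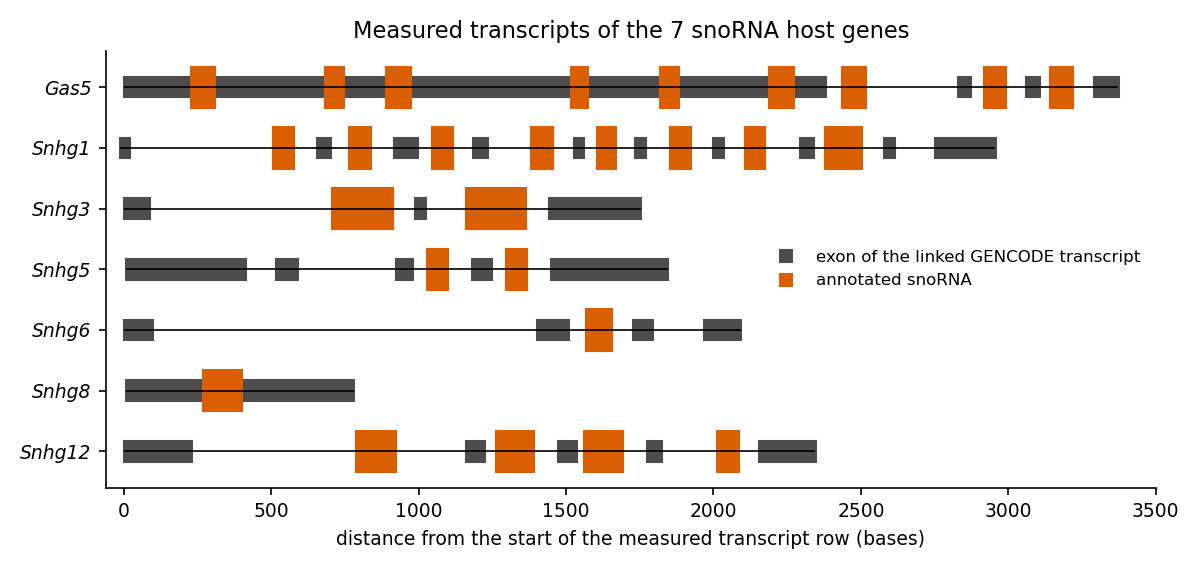
Exons of the GENCODE transcript linked to the measured row (grey boxes) and annotated snoRNAs (orange boxes) of the 7 host genes. Positions are in bases from the start of the measured row, each gene drawn in its direction of transcription. The 27 snoRNAs lie in introns except 6 in the long Gas5 transcript and Snora24 in Snhg8.

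Start-site sequence was read for 7 of the 9 genes from the RefSeq promoter table of GRCm38.p6. The windows run from 25 bases before the annotated start to 20 bases from it, and capitals mark, over its whole length, the longest unbroken run of C and T that reaches into the 10 bases on either side of the start.
Gas5 (chr1:161035141-161035185, plus strand): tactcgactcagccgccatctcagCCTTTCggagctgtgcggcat
Snhg1 (chr19:8723462-8723506, plus strand): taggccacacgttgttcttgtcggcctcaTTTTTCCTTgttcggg
Snhg3 (chr4:132353667-132353711, minus strand): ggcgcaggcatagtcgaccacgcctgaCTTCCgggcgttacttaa
Snhg5 (chr9:88522878-88522922, minus strand): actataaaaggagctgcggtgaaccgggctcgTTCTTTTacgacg
Snhg8 (chr3:123508317-123508361, minus strand): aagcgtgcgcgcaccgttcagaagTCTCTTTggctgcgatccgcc
Snhg12 (chr4:132308653-132308697, plus strand): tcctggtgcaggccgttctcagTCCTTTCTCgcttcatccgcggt
Malat1 (chr19:5802653-5802697, minus strand): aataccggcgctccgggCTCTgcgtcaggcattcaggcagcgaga
The runs were 9 bases long in Snhg1 and Snhg12, 7 in Snhg5 and Snhg8, 6 in Gas5, 5 in Snhg3 and 4 in Malat1. Of all 32851 promoters in the table, 9.55% held a run of at least 9 bases on the gene's strand reaching into those bases, 19.7% one of at least 7, 29.2% one of at least 6, 44.9% one of at least 5 and 63.9% one of at least 4, and the median was 4. A run is a description of these letters and not a mapped start site. Snhg6 and Neat1 were not in the table.

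The 2 day 6 libraries were close to each other on these genes, and the 2 day 4 libraries were far apart. The day 4 gap was larger in size than the day 6 gap for all 9 genes, beside 10237 of all 11736 genes tested. No gene among the 11736 tested (0%) passed an adjusted p of 0.05 between day 6 and day 4 in limma's test on log2(FPKM + 1), with Benjamini-Hochberg adjustment over all genes, while 1806 had an unadjusted p under 0.05. None of the 9 passed either, and for all 9 the day 6 and day 4 values overlapped. Of the tested genes as a whole, 41.5% had both day 6 values above both day 4 values, and 11.5% had both below. An exact two-sided permutation test of 2 libraries against 2 cannot give a p below 0.333, and it gave 0.667 for Snhg12 and Neat1 and 1 for the other 7. The labels do not say that the replicates were separate cultures, so these p-values measure only the spread between the libraries. Log2 differences below are on the scale of log2(FPKM + 1), which understates the change of low genes, and values given as fold are plain ratios of FPKM.

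The 2 day 4 libraries differed over the whole table, which bears on every gene described here. Fragment totals estimated from the tables were 6640000 and 5930000 at day 6, against 3970000 and 3770000 at day 4. Genes tested that were listed at exactly 0 numbered 19 and 29 at day 6, against 170 in day 4 replicate 1 and 945 in day 4 replicate 2. Among embryonic stem cell markers, Pou5f1, the core pluripotency factor, had 54.9 and 42.0 FPKM at day 6, against 368 and 376 FPKM at day 4. The 11 markers of that kind summed to 316 and 323 FPKM at day 6, against 985 and 1052 FPKM at day 4, and Zfp42, Esrrb and Klf4 were higher at day 6 without overlap. The 8 fibroblast or feeder markers summed to 150 and 283 FPKM at day 6, against 11.7 and 8.63 FPKM at day 4, where Postn, Dcn and Lum were listed at 0 in both libraries. The 4 blood markers summed to 179 and 712 FPKM at day 6, against 0 in both day 4 libraries, and Ptprc was listed at 0 in all 4. The 4 neural markers summed to 18.0 and 7.63 FPKM at day 6, against 9.58 and 8.85 FPKM at day 4. The part of these cell types in the values below was not tested, and in bulk RNA fewer cells of a type and less RNA per cell cannot be told apart. The titles give the days used here, but for 3 of the 4 libraries the label text on culture gives another number of days without LIF, while their text on harvest matches the titles. Day 4 replicate 2 stood apart in its number of genes at 0. Both day 4 libraries differed from day 6 by the GC content of the transcripts, as given below. The part of RNA quality or of a labelling error in the values of either day 4 library was not tested.

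Among the box C/D hosts, Gas5, first found as a transcript that accumulates in growth-arrested cells, had 6.34 and 6.34 FPKM in the day 6 libraries, against 49.3 FPKM in day 4 replicate 1 and 0.165 FPKM in day 4 replicate 2. Day 6 thus lay between the day 4 libraries, and the low value came with a deposited interval of 0 to 0.496 FPKM for its row of 2554 bases. Taken as day 6 minus day 4, the log2 difference was -0.06 (SE 1.88, limma adjusted p = 0.991). Its 2 rows moved alike at day 4. The row of 2554 bases had 5.74 and 6.34 FPKM at day 6, against 33.2 and 0.165 FPKM at day 4. The row of 549 bases, which also retains intron sequence and has 2 snoRNAs within its exons, had 0.597 and 0.0000161 FPKM at day 6, against 16.1 and 0 FPKM at day 4. The row of 2554 bases, which holds 6 snoRNAs, therefore carried most of the Gas5 signal in every library.

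Snhg1, whose introns carry 8 snoRNAs and whose spliced row is 476 bases long, had 20.2 and 26.8 FPKM at day 6, against 95.4 FPKM in day 4 replicate 1 and 0 FPKM in day 4 replicate 2. It was the highest host in both day 6 libraries and in day 4 replicate 1, yet it was listed at 0 in the remaining library. The log2 difference was 1.31 (SE 2.27, limma adjusted p = 0.797). The deposited value of 95.4 FPKM lies above its own deposited upper bound of 80.5 FPKM, and so does 26.8 FPKM in day 6 replicate 2, with a bound of 25.4 FPKM. Such values also occurred in 365 to 647 rows per library, and the size of the Snhg1 level is uncertain to that extent.

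Snhg5, the host of Snord50a, had 13.8 and 16.8 FPKM at day 6, against 31.6 and 0.234 FPKM at day 4. The log2 difference was 1.35 (SE 1.65, limma adjusted p = 0.705). Day 6 replicate 1 and day 6 replicate 2 differed by 1.21-fold, whereas the low day 4 value had a deposited interval of 0 to 0.587 FPKM. Snhg6, the host of Snord87, had 8.84 and 13.4 FPKM at day 6, against 25.7 and 6.51 FPKM at day 4, with a log2 difference of -0.25 (SE 0.77, limma adjusted p = 0.886). No measured row of another gene overlapped the Snhg6 gene span on either strand. Whether the quantification used strand is not stated in the sources used here.

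Among hosts of H/ACA snoRNAs, Snhg3 carries both copies of Snora73, the U17 RNA needed for early cleavage of the ribosomal RNA precursor. It had 0 and 0.826 FPKM at day 6, against 30.6 and 0 FPKM at day 4. It was the lowest of the 9 genes at day 6 and was detected well in day 4 replicate 1 alone, and the log2 difference was -2.06 (SE 1.75, limma adjusted p = 0.589). Gm17300 overlaps Snhg3 on the opposite strand and had 4.70 and 4.37 FPKM at day 6, against 27.8 and 0 FPKM at day 4. Without knowing how strand was used, reads of this pair cannot be told apart. Among the measured rows, only this pair overlapped the Snhg3 gene span, and Rcc1 had no row there.

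Snhg8, whose row contains Snora24, had 7.21 and 6.61 FPKM at day 6, against 34.8 and 1.59 FPKM at day 4 (log2 difference -0.29, SE 1.34, limma adjusted p = 0.928). Its day 4 libraries were 21.9-fold apart. Snhg12, which carries 3 H/ACA snoRNAs and Snord99, was the steadiest host. It had 14.8 and 13.6 FPKM at day 6, against 28.3 and 14.8 FPKM at day 4, a log2 difference of -0.50 (SE 0.51, limma adjusted p = 0.655). Day 4 replicate 2 lay at the level of day 6 for Snhg12, with a 1.91-fold gap to day 4 replicate 1.

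Summed over the 7 hosts, the level was 71.1 and 84.4 FPKM at day 6, against 296 and 23.3 FPKM at day 4. Hosts at 10 FPKM or more numbered 3 and 4 of 7 at day 6, against 7 and 1 of 7 at day 4. The makeup of the sum also differed. Snhg1 made up 28.4% and 31.8% of it at day 6, against 32.3% and 0% at day 4. Snhg12 made up 20.8% and 16.1% at day 6, against 9.55% and 63.5% at day 4, so that the host RNA listed in day 4 replicate 2 was mostly Snhg12 and Snhg6. The tables give FPKM without read counts, and the number of reads behind these low values was not estimated from the deposited intervals. Estimated fragment totals were alike at day 4, at 3970000 in replicate 1 and 3770000 in replicate 2.

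Malat1 was the most abundant of the 9 genes in 3 of the 4 libraries. It had 71.3 and 61.8 FPKM at day 6, against 150 FPKM in day 4 replicate 1 and 9.65 FPKM in day 4 replicate 2, where Snhg12 was higher. Its row of 6982 bases is the longest of the group, and its deposited intervals are narrow, at 69.3 to 73.3 FPKM and 59.8 to 63.9 FPKM at day 6, against 146 to 154 FPKM and 8.55 to 10.7 FPKM at day 4. The 15.5-fold gap between the day 4 libraries was thus far wider than the deposited intervals. The log2 difference was 0.75 (SE 1.36, limma adjusted p = 0.806).

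Neat1 was measured on a row of 3177 bases, annotated as the short isoform, at the start of the gene. No row covered the rest of the gene span, so reads of the long isoform in this stretch cannot be told apart. It had 26.3 and 18.8 FPKM at day 6, against 24.8 and 7.41 FPKM at day 4, with a log2 difference of 0.66 (SE 0.70, limma adjusted p = 0.667). Day 4 replicate 1 lay within the day 6 range of Neat1, and day 4 replicate 2 lay within the day 6 range of Snhg12 and Snhg3, Snhg3 being listed at 0 there and in day 6 replicate 1. The Malat1 level was 2.72 and 3.29 times the Neat1 level at day 6, against 6.04 and 1.30 times at day 4. A further row without a gene symbol, 1026 bases long at chr19:5843983-5845008 (mm10), lies wholly inside the Neat1 row and was looked at after its values were seen. This nested row had 64.0 and 43.8 FPKM at day 6, against 23.4 and 27.7 FPKM at day 4, so the days did not overlap and the day 4 libraries were close. Its own log2 difference was 1.03 (SE 0.47, limma adjusted p = 0.379). With it added, the Neat1 locus had 90.3 and 62.6 FPKM at day 6, against 48.2 and 35.1 FPKM at day 4, a log2 difference of 0.85 (SE 0.49, limma adjusted p = 0.449). How reads were shared between the nested rows is not stated in the labels, and Neat1 is uncertain to that extent.

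**Figure D2:**
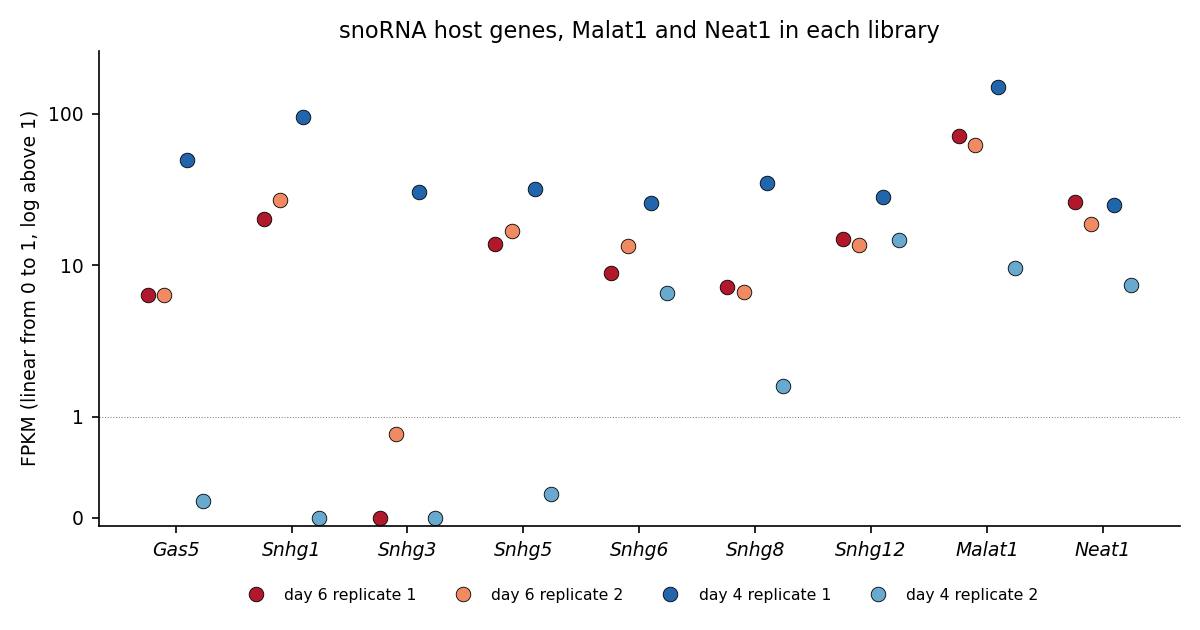
FPKM of the 9 genes in each library on an axis that is linear from 0 to 1 and logarithmic above 1, with day 6 left of day 4 and a point per library. The day 6 points lie close together, while day 4 replicate 2 is below day 4 replicate 1 for all 9 genes and is listed at 0 for Snhg1 and Snhg3.

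By mean level, the order at day 6 was Malat1 at 66.6 ± 6.69 FPKM, Snhg1 at 23.5 ± 4.71, Neat1 at 22.5 ± 5.26, Snhg5 at 15.3 ± 2.09, Snhg12 at 14.2 ± 0.817, Snhg6 at 11.1 ± 3.24, Snhg8 at 6.91 ± 0.423, Gas5 at 6.34 ± 0.000990 and Snhg3 (SD, n = 2 each), with Snhg3 listed at 0 in one library. Snhg1 and Neat1 overlapped, as did Snhg5 and Snhg12, so neither pair can be ordered. The small Gas5 SD is that of a sum of 2 rows, which moved in opposite directions between the day 6 libraries. In day 4 replicate 1 the order ran from Malat1 and Snhg1 through Gas5 at 49.3 FPKM, with Neat1 lowest at 24.8 FPKM. In day 4 replicate 2 it ran from Snhg12 at 14.8 FPKM through Malat1, Neat1 and Snhg6, with the other 5 under 2 FPKM. Gas5 was thus the third highest in day 4 replicate 1 and the eighth by mean level at day 6.

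The direction of the day 6 to day 4 difference depended on which day 4 library was used. Set against day 4 replicate 1 alone, 8 of the 9 genes passed limma's test and all 8 were lower at day 6, with Neat1 the exception at -0.15 (adjusted p = 0.633). In that comparison 15.6% of all genes passed as lower and 36.1% as higher. The largest differences there were Snhg3 at -4.55, Gas5 at -2.78, Snhg8 at -2.18 and Snhg1 at -1.99, with limma adjusted p from 0.00240 to 0.00337. Set against day 4 replicate 2 alone, 6 genes passed limma's test and all 6 were higher at day 6, beside 49.8% of all genes passing as higher and 17% as lower. These were Snhg1 at 4.60, Snhg5 at 3.72, Malat1 at 2.66, Gas5 at 2.65, Snhg8 at 1.61 and Neat1 at 1.47, with adjusted p from 0.000298 to 0.00589. Each of these fits has a lone day 4 library, whose spread is taken from the day 6 pair, so they compare day 6 with that library and not with day 4. Gas5, Snhg1, Snhg5, Snhg8 and Malat1 thus lay at day 6 below day 4 replicate 1 and above day 4 replicate 2. The share of all genes that did so was not counted.

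**Figure D3:**
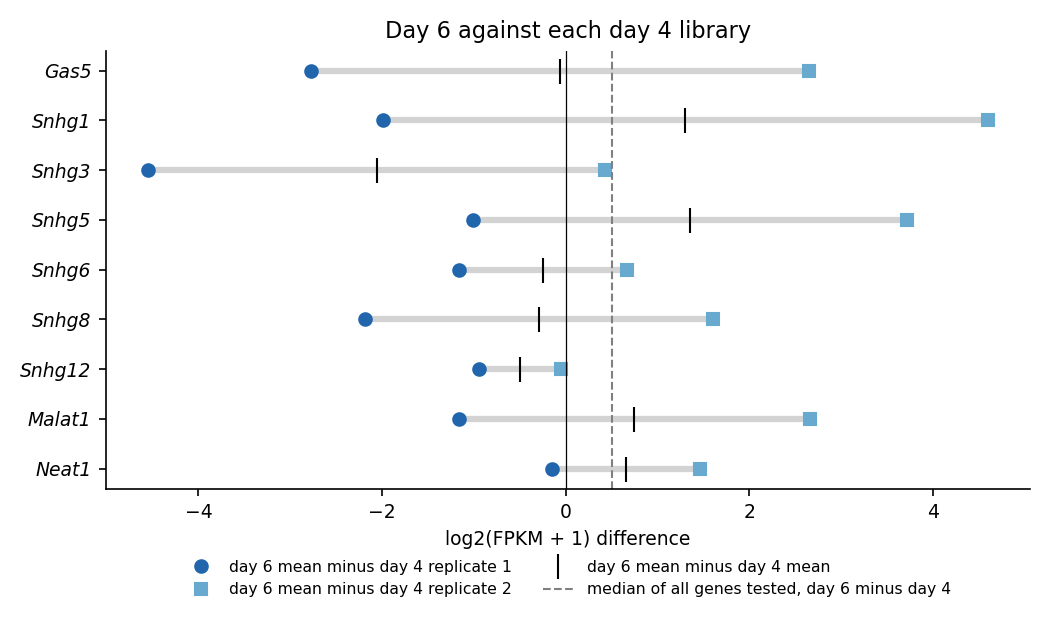
Difference of log2(FPKM + 1) between the mean of the day 6 libraries and each day 4 library, for the 9 genes, with a tick at the difference from the day 4 mean and a dashed line at the median of all genes, 0.51. Against day 4 replicate 1 all 9 points lie below 0, and against day 4 replicate 2 all lie above 0 except Snhg12 at -0.05.

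Between the day 4 libraries, all 9 genes were lower in replicate 2 than in replicate 1, beside 56.5% of all genes tested. On the scale of log2(FPKM + 1), the gap of replicate 2 minus replicate 1 was -6.59 for Snhg1, -5.43 for Gas5, -4.98 for Snhg3, -4.72 for Snhg5, -3.82 for Malat1, -3.79 for Snhg8, -1.83 for Snhg6, -1.62 for Neat1 and -0.89 for Snhg12. A gap below -1 was found in 8 of the 9, beside 32.8% of all genes. Of all genes tested, 0.204% had a lower gap than Snhg1 and 0.775% a lower one than Gas5, against 35.1% for Snhg12. The median gap was -4.72 over the 7 hosts and -0.26 over all genes. Between the day 6 libraries the 9 gaps ran from -0.46 for Neat1 to 0.87 for Snhg3.

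Base composition moved with that gap. The median gap over all genes was -1.73 for transcripts under 40% GC, -1.59 from 40% to 44%, -1.20 from 44% to 48%, -0.60 from 48% to 52%, 0.15 from 52% to 56%, 0.97 from 56% to 60% and 1.55 from 60% up. All 9 genes lay under 52% GC, from 40.6% for Gas5 to 51.1% for Neat1, and 5 lay between 40% and 44%. The Neat1 value is that of the linked GENCODE transcript of 2 exons, whereas the measured row is unspliced, so its GC content is uncertain to that extent. For each of the 9, the gap was still larger in size than the median of genes within 1% of its GC content. The gap minus that median was -4.95 for Snhg1, -3.68 for Gas5, -3.50 for Snhg5, -3.26 for Snhg3, -2.58 for Snhg8, -2.27 for Malat1, -1.20 for Neat1, -0.35 for Snhg6 and -0.24 for Snhg12. Set against day 6, both day 4 libraries moved with GC content. Day 6 minus day 4 replicate 1 had a median of -0.76 under 40% GC and 0.85 from 60% up. Day 6 minus day 4 replicate 2 had 0.94 and -0.75 there. From 40% to 44% GC, the median against replicate 1 was -0.34, beside 0.38 over all genes. Against replicate 1, all 9 genes lay below the median of genes within 1% of their GC content. The part of GC content in the gap and in these differences was not tested beyond this.

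**Figure D4:**
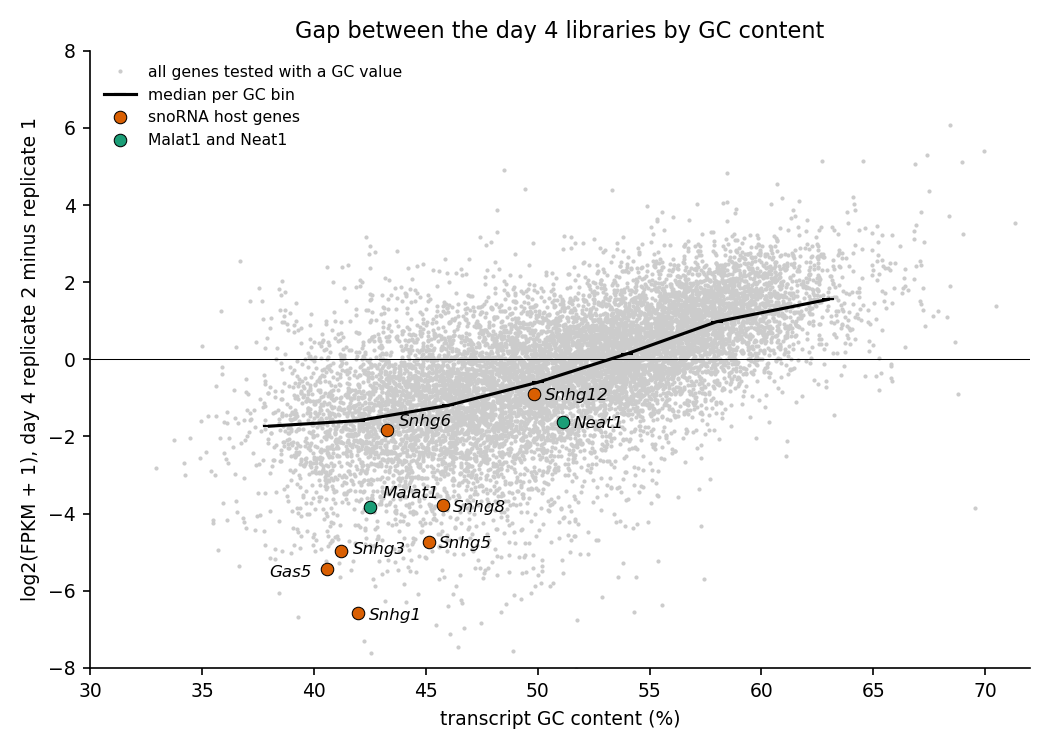
Difference of log2(FPKM + 1), day 4 replicate 2 minus replicate 1, against the GC content of the transcript in percent, with the 9 genes marked and the median of all genes by GC drawn as a line. The median runs from -1.73 under 40% GC to 1.55 from 60% up, and all 9 genes lie below it.

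Other long noncoding snoRNA hosts did not share one pattern. Of 14 with a row, 13 were tested and none passed limma's test. In day 4 replicate 2, 8 were lower than in replicate 1 and 5 were higher, beside 56.5% lower over all genes. Snhg11, at 44.9% GC, had 3.55 and 4.17 FPKM at day 6, against 20.2 and 0.866 FPKM at day 4. Snhg20, at 58.5% GC, had 14.3 and 8.60 FPKM at day 6, against 3.97 and 38.5 FPKM at day 4. These genes, chosen after their values were seen, thus show the day 4 libraries in opposite order. Snhg15 and Dancr were lower and Snhg17 was higher at day 6 without overlap, or 2 and 1 of 13, beside 11.5% and 41.5% of all genes. Snhg15 had 14.8 and 7.96 FPKM at day 6, against 17.9 and 16.6 FPKM at day 4, and Snhg17 had 6.38 and 5.07 FPKM at day 6, against 4.71 and 1.91 FPKM at day 4. Dancr, described in human cells as a noncoding RNA that holds back differentiation, had 0.801 and 0.393 FPKM at day 6, against 8.22 and 1.59 FPKM at day 4.

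Protein-coding snoRNA hosts, many of them ribosomal protein genes, had a median day 4 gap of -1.84 over 21 genes. Of the 21, 14 were lower in day 4 replicate 2, beside 56.5% of all genes. None passed limma's test, and 4 were higher and 1 was lower at day 6 without overlap, beside 41.5% and 11.5% of all genes. Eef1b2, which encodes a translation elongation factor subunit, had 304 and 320 FPKM at day 6, against 289 and 80.0 FPKM at day 4. Rcc1, the exchange factor for the Ran GTPase, had 32.6 and 30.7 FPKM at day 6, against 41.3 and 71.9 FPKM at day 4.

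Of 17 proteins that form or assemble snoRNA particles, 8 were lower and 4 higher at day 6 without overlap, beside 11.5% and 41.5% of all genes, and none passed limma's test. Gar1, a core protein of H/ACA particles, had 35.1 and 37.6 FPKM at day 6, against 173 and 78.2 FPKM at day 4. Naf1, an H/ACA assembly factor, had 17.9 and 19.1 FPKM at day 6, against 24.2 and 112 FPKM at day 4. Nop10, another core H/ACA protein, had 69.4 and 63.7 FPKM at day 6, against 47.1 and 0 FPKM at day 4. Of 14 nonsense-mediated decay factors, 5 were lower and 3 higher at day 6 without overlap, beside 11.5% and 41.5% of all genes, and none passed. Upf3a, an exon junction decay factor, had 35.8 and 46.5 FPKM at day 6, against 200.5 and 70.0 FPKM at day 4. Smg1, the kinase that phosphorylates Upf1, had 7.69 and 8.40 FPKM at day 6, against 6.03 and 2.58 FPKM at day 4.

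Genes for proteins of the bodies that hold Malat1 and Neat1 gave more members lower than higher at day 6 without overlap, where all genes gave 11.5% lower and 41.5% higher. Of 15 nuclear speckle proteins, 7 were lower and 1 was higher without overlap, with a median log2 difference of -0.56, beside 0.51 over all genes. Of 19 paraspeckle proteins, 6 were lower and none higher, with a median of -0.53. None in either list passed limma's test. Sfpq, a paraspeckle protein that binds Neat1, had 122 and 110 FPKM at day 6, against 248 and 653 FPKM at day 4 (log2 difference -1.79, SE 0.66, adjusted p = 0.321). Srsf2, a splicing factor of speckles, had 194 and 154 FPKM at day 6, against 224 and 756 FPKM at day 4. Rbm25, a splicing regulator of speckles, had 42.1 and 44.8 FPKM at day 6, against 394 and 60.9 FPKM at day 4. Malat1, Neat1, 13 of the 19 paraspeckle genes and 11 of the 15 speckle genes were lower in day 4 replicate 2. Over all genes tested, 56.5% were lower there than in replicate 1, whereas Sfpq and Srsf2 were higher.

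Most tested genes listed as neighbours of Malat1 and Neat1 on chromosome 19 did not follow their day 4 gap. The list was made by name without a check of positions, and it holds Ssc5d, which is on another chromosome in the mouse. Of its 14 genes with a row, 11 were tested. Without overlap, 4 of these, Ssc5d included, were higher and none lower at day 6, near the 41.5% of all genes that were higher. None passed limma's test. Their median day 4 gap was 0.77, of the opposite sign to those of Malat1 and Neat1. In day 4 replicate 2, 4 of the 11 were lower, with Ssc5d among them at a gap of -0.03, beside 56.5% of all genes. GC content ran from 50.2% for Cdc42ep2 to 61.7% for Sipa1, against 42.5% for Malat1 and 51.1% for Neat1. Over all genes the median gap was 0.97 from 56% to 60% GC and 1.55 from 60% up. The part of GC content in these differences was not tested. Cdc42ep2, an effector of the Cdc42 GTPase, had 4.30 and 6.99 FPKM at day 6, against 0.586 and 0.149 FPKM at day 4. RNAs that, like Malat1, end without a usual poly(A) tail had a median day 4 gap of 1.38 over 8 tested genes. Their GC content ran from 45.9% for H2ac6 to 67.1% for Terc, and its part in their gap was not tested. Of the 8, 1 was lower in day 4 replicate 2, beside 56.5% of all genes. Among them, H1f2, a linker histone gene, had 51.0 and 38.2 FPKM at day 6, against 2.75 and 11.98 FPKM at day 4. H2ac6, a core histone gene, had 2.44 and 1.40 FPKM at day 6, against 3.55 and 10.4 FPKM at day 4. Without overlap, 2 of the 8 were higher and 1 was lower at day 6, beside 41.5% and 11.5% of all genes, and none of the 8 passed limma's test.

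**Figure D5:**
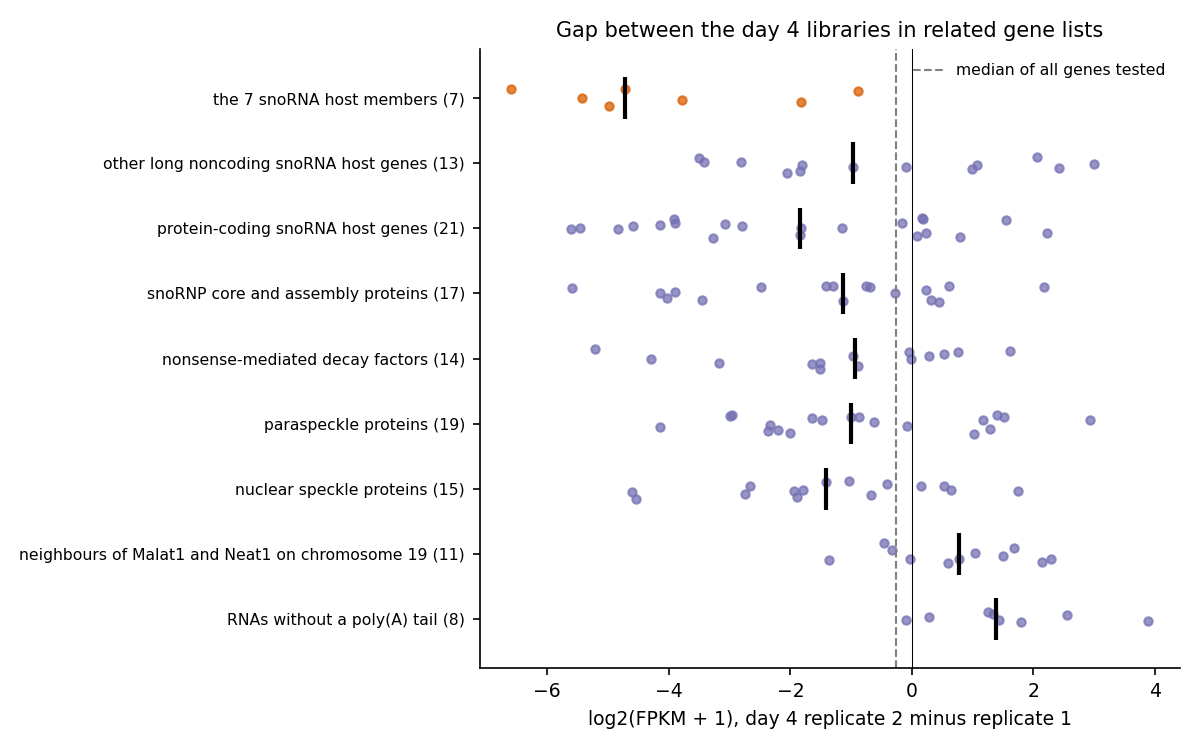
Difference of log2(FPKM + 1), day 4 replicate 2 minus replicate 1, for the tested genes of each list, with a point per gene a bar at each median and a dashed line at the median of all genes, -0.26. The 7 hosts have a median of -4.72, and the medians of the 8 lists run from -1.84 for protein-coding hosts to 1.38 for RNAs without a poly(A) tail.

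The genes most like each pattern were found by the Euclidean distance between centred log2 levels over the 4 libraries, among 5439 genes that averaged 10 FPKM or more. Nearest to Malat1 were Fam98b, Cops2 and Septin7, at distances of 0.141, 0.216 and 0.223. Nearest to Neat1 were Pigf, Pon2 and Vps36, at 0.111, 0.144 and 0.180. Nearest to the sum of the 7 hosts were Ddx3x, Rrp15 and Denr, at 0.216, 0.225 and 0.266. With 4 libraries, nearness says no more than that the levels moved alike in these libraries.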

How the data were processed

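RNA sequencing of 4 libraries was used, 2 from day 6 and 2 from day 4. The authors deposited FPKM per transcript row with lower and upper FPKM bounds and a coverage signal per row, per the file headers. Reads were handled with CASAVA and aligned to mm10 with TopHat2 2.0.11, per the submitters' processing notes. The labels name no quantifier, and its use of strand is not stated there. FPKM holds no counts, and depth per gene was not estimated.

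The 4 tables were joined row by row, and 94.2% of rows were named from RefSeq and GENCODE M21 tables. FPKM was summed per symbol. Genes averaging 1 FPKM or more were tested with limma 3.58.1 in R 4.3.3 on log2(FPKM + 1), with a mean-variance trend and Benjamini-Hochberg adjustment at 0.05. The script was tested on simulated data. The 9 genes and the 8 gene lists were chosen with earlier results of these data known. Genes of a list were named where their days did not overlap, at most 4 a list by size of difference. Alternatives covered pseudocount, filter, scaling, GC correction, row choice, replicate block and each library left out.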

Additional observations from a re-analysis of the deposited data

How the results depend on the processing

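None of the 9 genes passed the threshold in any setting with all 4 libraries. Over all genes, the median log2 difference of day 6 minus day 4 was 0.51, against -0.06 with equal medians, 0.10 with TMM scaling and 0.02 after GC correction. Gas5 turned to 0.83 with a pseudocount of 0.1 FPKM and to 0.16 with the highest row of each symbol. Neat1 turned to -0.0069 with equal medians and to -0.011 after GC correction. Snhg12 moved from -0.50 to -1.17 with equal medians, -0.99 with TMM scaling and -1.19 after GC correction, and Malat1 moved from 0.75 to 0.07, 0.25 and 0.29; the causes were not tested. With the replicate number as a block, 74 genes passed, 60 higher and 14 lower at day 6, none of them among the 9. Same-numbered libraries did not deviate together (r = -0.09 across 11736 genes), so the numbers were not taken to pair the libraries. Leaving out a library gave 0 to 7834 genes past the threshold, 7834 without day 4 replicate 1, 6065 without day 4 replicate 2 and 0 without either day 6 library, and 0 to 8 of the 9 genes. Over the libraries left out, the log2 difference ran from -2.78 to 2.65 for Gas5, -1.99 to 4.60 for Snhg1, -4.55 to 0.43 for Snhg3, -1.01 to 3.72 for Snhg5, -1.17 to 0.67 for Snhg6, -2.18 to 1.61 for Snhg8, -0.95 to -0.05 for Snhg12, -1.16 to 2.66 for Malat1 and -0.15 to 1.47 for Neat1. Snhg6 also turned to 0.03 without day 6 replicate 1. Fewer estimated fragments at day 4 than at day 6, with no counts per gene, limit what the low values show. Between the day 4 libraries the estimated totals were alike, at 3970000 in replicate 1 and 3770000 in replicate 2.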
